A study of Mus musculus with 7 samples.

Results

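The genes described here are 39 genes of blood and lymphatic endothelium, the cells that line blood and lymph vessels, together with the VEGF, angiopoietin and apelin signals that direct vessel growth. They were taken by symbol from a list of named genes, and all 39 were found among the 24964 gene symbols measured by RNA sequencing of whole mouse uterus. The list was chosen with earlier results of these data known. Its counts beside the shares of all tested genes are therefore description, not independent support. The 7 libraries came from mice 12 weeks old in diestrus. Controls were 3 libraries of the genotype Pgrcre/+ (replicates 1, 2 and 4), in which 1 progesterone receptor allele carries Cre recombinase. The other 4 libraries (replicates 1 to 4) were labelled Pgrcre/+ with Foxl2LsL/+ and are called labelled Foxl2-LSL. The heterozygous Cre allele was thus shared by all 7 libraries. By its title the series asks how raised FOXL2, a transcription factor with a forkhead domain, changes the uterus, and Cre from the progesterone receptor gene is made mainly in uterine epithelium, stroma and muscle.

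Endothelial cells need VEGF signals to divide and survive. VEGF-A acts mainly through the receptor encoded by Kdr, while Flt1 encodes a receptor that binds the same ligand with high affinity and limits its action. VEGF-C acts on the lymphatic receptor encoded by Flt4. Angiopoietin-1 activates the TIE2 receptor (gene Tek) and stabilises vessels, and angiopoietin-2 largely opposes it. Vessels of the uterine lining grow and regress with each cycle and expand greatly in early pregnancy.

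Values are FPKM, fragments scaled by gene length and by the fragments of the library, so levels can be compared between genes. The denominators recovered from the values were 47800000 to 67300000 fragments per library, and no library had fewer than 95 fragments on any of the 39 genes. Foxl2, the gene named in the second label, did not pass the test. It was at 11.1, 19.3 and 12.9 FPKM in controls 1, 2 and 4 and at 12.7, 14.3, 14.8 and 17.2 FPKM in labelled Foxl2-LSL libraries 1 to 4 (limma adjusted p 0.818; log2 fold change 0.06, SE 0.18). This does not bear out the second label at the level of Foxl2 RNA, and every direction below is for the libraries as labelled. The sample titles do not say whether RNA from the Foxl2LsL allele would be counted on this gene. Control 4 stood apart from the other controls: it was the highest control for 26 of the 39 genes (66.7%), against 33.3% of all tested genes. Control 1 was the lowest control for 53.8% of the 39 genes (35.8% of all tested genes), and labelled Foxl2-LSL 2 was the lowest of its group for 51.3% (33.2%).

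Most of the 39 genes differed between the genotypes, and more were lower than higher in the libraries labelled Foxl2-LSL. At an adjusted p of 0.05 (limma on log2(FPKM + 1), Benjamini-Hochberg over 13334 tested genes), 20 were lower, 7 were higher and 12 did not pass. Among all tested genes 40.6% passed, 23.9% of them lower and 16.7% higher as shares of the genes tested. The median log2 fold change was -0.36 for the 39 genes and -0.05 for all tested genes. The groups did not overlap in the 27 genes that passed, and they overlapped in the other 12. Of all tested genes, 47.6% had no overlap, 27.9% with the labelled Foxl2-LSL libraries lower and 19.7% with them higher. All 39 genes met the filter of a mean of 1 FPKM over the 7 libraries. Angpt1, Prox1 and Apln met it although 1 group was below that level on average. Without control 4 the counts were 20 lower and 8 higher. Libraries are of whole tissue, so fewer endothelial cells, less RNA per endothelial cell and changes in other cells cannot be told apart. Some of the 39 genes, such as Cd34 and Pdpn, are also expressed outside endothelium. The labels do not say that replicates came from separate animals, and p-values then measure only the spread between these libraries.

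**Figure D1:**
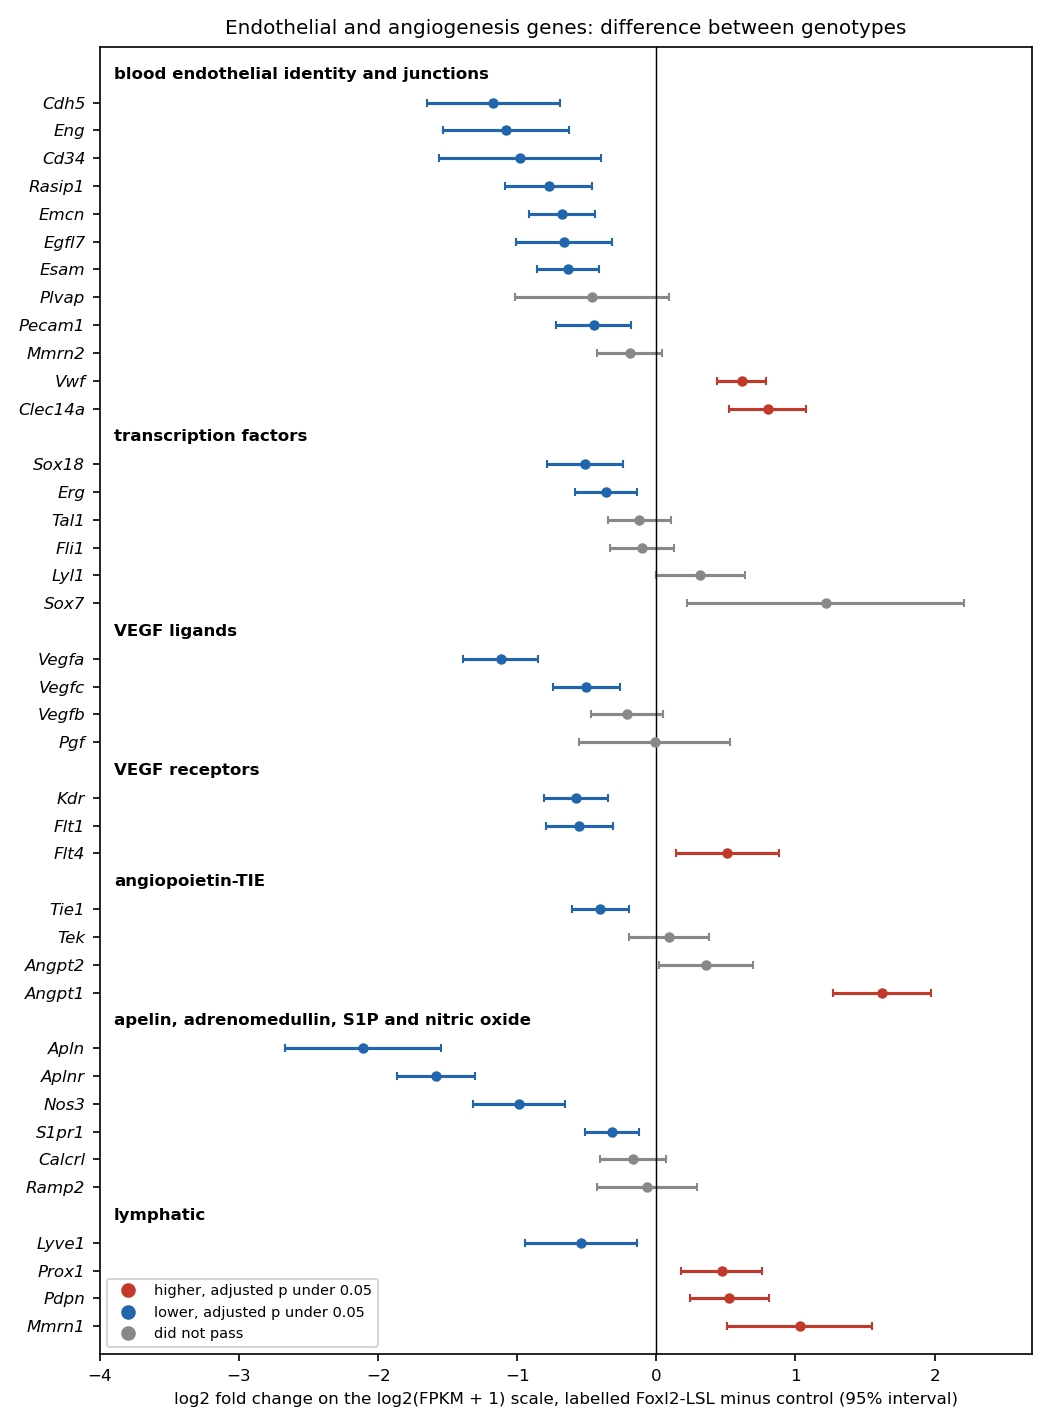
Log2 fold change of each of the 39 genes on the log2(FPKM + 1) scale (x axis, labelled Foxl2-LSL minus control; points with 95% intervals), in blocks by role, coloured by whether the gene was higher, lower or did not pass an adjusted p of 0.05 (limma). Most points lie left of 0, with Apln lowest at -2.11 and Angpt1 highest at 1.62; 3 of the 4 lymphatic genes lie right of 0.

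Promoter sequence was compared because many genes moved in 1 direction. RefSeq windows (GRCm38.p6) of the 250 bases before the transcription start were found for 23 of the 39 genes, in 31 windows. Both strands were searched for the ETS cores AGGAAG and CGGAAG, bound by factors such as ERG and FLI1, for the SOX cores ACAAAG and ACAATG, and for the forkhead core TAAACA. None of these contains another. An ETS core was present in 38.7% of the 31 windows and in 39.2% of all 32851 windows. The SOX cores were present in 29.0% and 25.2%, and the forkhead core in 12.9% and 12.0%. The windows as a set thus held these letters about as often as other windows. With 1 window per gene, an ETS core was found in 8 of the 12 lower genes, in 0 of the 5 higher genes and in 2 of the 6 that did not pass. Some of these windows lay wholly or largely in annotated exons: all 250 bases in Rasip1, Flt4 and Pgf, 212 in Tie1 and 145 in Calcrl. Among them Rasip1, Tie1 and Calcrl held an ETS core. A SOX core was found in 2, 2 and 2 of these genes, and the forkhead core in 0, 2 and 1. These splits were made after the calls were known and were not tested, and a match is not a binding site. Of the genes whose window held no annotated exon, 3 lower and 2 higher ones are shown, 5′ to 3′ on the strand of the gene. The lower genes were picked because they hold an ETS core: the windows of Erg, Vegfa and Vegfc, also lower and free of exons, hold none of the cores, and that of the higher gene Mmrn1 holds 1 SOX core. Eng (chr2:32646345-32646594, plus strand) and Flt1 (chr5:147726012-147726261, minus strand) each hold 2 ETS cores, and Eng also holds 1 SOX core. Apln (chrX:48034854-48035103, minus strand) holds 1 ETS and 1 SOX core. Prox1 (chr1:190170828-190171077, minus strand) holds none, and Pdpn (chr4:143299565-143299814, minus strand) holds 1 SOX and 1 forkhead core. Capitals mark the cores, read on either strand.
Eng: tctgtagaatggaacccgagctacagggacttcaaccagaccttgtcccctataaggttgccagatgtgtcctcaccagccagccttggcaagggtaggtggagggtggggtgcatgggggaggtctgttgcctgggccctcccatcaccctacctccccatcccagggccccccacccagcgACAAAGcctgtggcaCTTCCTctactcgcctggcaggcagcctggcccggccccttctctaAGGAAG
Flt1: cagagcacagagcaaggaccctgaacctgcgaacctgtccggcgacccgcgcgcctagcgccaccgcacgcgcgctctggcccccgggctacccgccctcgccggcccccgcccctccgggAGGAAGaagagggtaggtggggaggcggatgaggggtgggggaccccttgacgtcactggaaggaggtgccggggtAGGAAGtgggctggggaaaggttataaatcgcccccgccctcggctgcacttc
Apln: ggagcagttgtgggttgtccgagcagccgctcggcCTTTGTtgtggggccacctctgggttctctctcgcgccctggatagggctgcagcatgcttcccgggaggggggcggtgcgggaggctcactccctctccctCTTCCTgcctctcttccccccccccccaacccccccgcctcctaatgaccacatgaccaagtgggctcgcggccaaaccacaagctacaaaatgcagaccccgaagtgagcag
Prox1: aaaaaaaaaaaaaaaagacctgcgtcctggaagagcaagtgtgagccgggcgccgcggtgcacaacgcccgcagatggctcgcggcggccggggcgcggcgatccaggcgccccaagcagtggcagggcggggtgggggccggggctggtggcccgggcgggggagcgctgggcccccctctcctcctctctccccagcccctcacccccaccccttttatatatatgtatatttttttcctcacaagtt
Pdpn: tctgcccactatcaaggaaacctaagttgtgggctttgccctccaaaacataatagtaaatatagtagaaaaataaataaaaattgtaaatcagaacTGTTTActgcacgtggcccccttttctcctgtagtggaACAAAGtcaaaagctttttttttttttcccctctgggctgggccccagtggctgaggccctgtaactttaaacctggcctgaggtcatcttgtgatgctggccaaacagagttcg

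The genes of blood endothelial identity and cell junctions were mostly lower: 8 of 12 fell, 2 rose and 2 did not pass. Cdh5 (chromosome 8, 104101625 to 104144511, plus strand, from GENCODE M21 on GRCm38) encodes VE-cadherin, the adhesion molecule of endothelial junctions. It was at 22.4, 24.5 and 43.4 FPKM in controls 1, 2 and 4 and at 11.5, 12.8, 12.9 and 11.8 FPKM in labelled Foxl2-LSL libraries 1 to 4. Every control lay above every labelled Foxl2-LSL library, and control 4 was far above the others. The log2 fold change was -1.17 (SE 0.21; limma adjusted p 0.00392) and -0.89 without control 4. Eng, which encodes endoglin, a co-receptor for TGF-beta ligands on dividing endothelium, was at 21.6, 33.1 and 36.5 FPKM in controls and 15.5, 10.5, 13.7 and 14.8 FPKM in labelled Foxl2-LSL libraries (log2 fold change -1.08, SE 0.20; limma adjusted p 0.00429). Here labelled Foxl2-LSL 2 was the lowest library. An exon of Eng overlaps Fpgs on the opposite strand, and the use of strand in counting is not given in the sources used here. On average Fpgs was at 18.1 FPKM in controls and 20.8 FPKM in labelled Foxl2-LSL libraries.

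Cd34, a sialomucin of capillary endothelium that stromal fibroblasts also carry, had the highest level of the 39 genes. It was at 77.3, 95.3 and 171 FPKM in controls and 57.5, 44.8, 58.6 and 57.6 FPKM in labelled Foxl2-LSL libraries. Control 4 set much of the difference, since the log2 fold change was -0.98 (SE 0.25; limma adjusted p 0.0175) with it and -0.65 without it. Pecam1, the platelet and endothelial adhesion molecule used to stain vessels, was at 25.7, 26.8 and 35.8 FPKM in controls and 20.9, 19.8, 22.2 and 21.3 FPKM in the labelled Foxl2-LSL libraries. Its fall was smaller (log2 fold change -0.45, SE 0.12; limma adjusted p 0.0182). Rasip1, which acts in lumen formation, fell by 0.77 on the log2 scale, with 8.58 ± 1.62 FPKM in controls and 4.58 ± 0.617 FPKM in labelled Foxl2-LSL libraries (mean ± SD, n = 3 and n = 4). Emcn (endomucin, a marker of veins and capillaries), Esam (a junction adhesion molecule) and Egfl7 (a secreted endothelial matrix protein) fell by 0.68, 0.63 and 0.67. Their levels in the labelled Foxl2-LSL libraries were 18.4 ± 1.58, 25.0 ± 1.66 and 27.4 ± 4.66 FPKM (SD, n = 4). Egfl7 shares exon sequence with Agpat2 on the opposite strand, which averaged 18.1 FPKM in controls and 15.1 FPKM in labelled Foxl2-LSL libraries.

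Clec14a and Vwf rose in this group. Clec14a, a C-type lectin of the endothelial surface, was at 6.70, 5.43 and 4.64 FPKM in controls and at 10.3, 9.36, 11.6 and 10.4 FPKM in the labelled Foxl2-LSL libraries (log2 fold change 0.80, SE 0.12; limma adjusted p 0.00205). Vwf, von Willebrand factor, stored in endothelium and in platelets, was at 2.91, 3.42 and 3.10 FPKM in controls and at 5.40, 5.17, 5.52 and 5.28 FPKM in the labelled Foxl2-LSL libraries. Its log2 fold change was 0.61 (SE 0.08; limma adjusted p 0.00108), with no overlap and little spread in either group. Plvap, which forms the diaphragms of fenestrated capillaries, ranged from 15.3 to 22.7 FPKM in controls and from 7.94 to 16.3 FPKM in labelled Foxl2-LSL libraries. It did not pass (log2 fold change -0.46, 95% interval -1.02 to 0.09), and the log2 fold change was -0.26 without labelled Foxl2-LSL 2 and -0.29 without control 4. Mmrn2, an endothelial matrix glycoprotein that binds CLEC14A, did not pass either (-0.19, 95% interval -0.43 to 0.04).

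**Figure D2:**
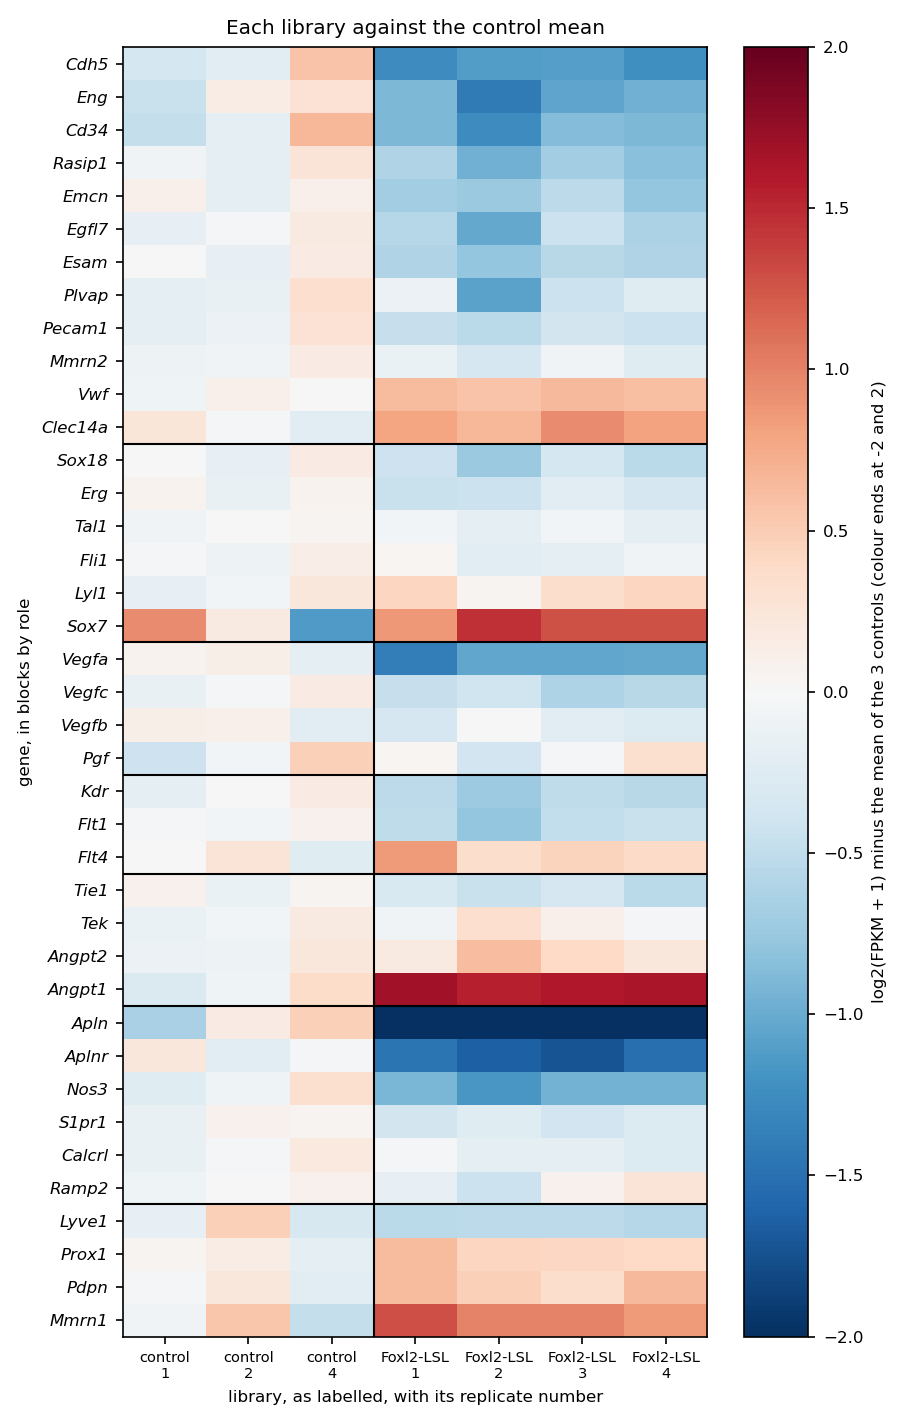
Each of the 39 genes (rows, in blocks by role) in each of the 7 libraries (columns), as log2(FPKM + 1) minus the mean of the 3 controls; red is above and blue below that mean, and colours end at -2 and 2. The rows Cdh5 to Esam are blue in all 4 labelled Foxl2-LSL libraries, Angpt1 is red in all 4, and control 4 departs from the other controls in Cdh5, Cd34 and Sox7.

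Of the 6 transcription factors, 2 fell and 4 did not pass. Sox18, a SOX factor that acts in blood and lymphatic vessels, was at 14.5, 12.7 and 16.3 FPKM in controls and 10.5, 8.22, 11.0 and 9.59 FPKM in the labelled Foxl2-LSL libraries (log2 fold change -0.52, SE 0.12; limma adjusted p 0.0113). Erg, the ETS factor that maintains endothelial identity, was at 4.72, 3.89 and 4.74 FPKM in controls and 2.98, 3.04, 3.64 and 3.28 FPKM in labelled Foxl2-LSL libraries. Its fall of 0.36 on the log2 scale was close to the threshold (limma adjusted p 0.0210). The call was lost without control 1 (0.0606), control 4 (0.0502), labelled Foxl2-LSL 1 (0.0517) or 4 (0.05001), each a limma adjusted p. Quantile normalization also lost it (limma adjusted p 0.05375), and it was lost under 6 of 15 alternatives in total. Fli1, a related ETS factor shared with blood cells, lay between 2.72 and 3.71 FPKM in all 7 libraries and did not pass. Tal1, which specifies blood and endothelial precursors, averaged 1.46 ± 0.111 FPKM in controls and 1.26 ± 0.130 FPKM in labelled Foxl2-LSL libraries (± SD, n = 3 and n = 4). Lyl1, its paralog, was at 1.98 ± 0.428 and 2.71 ± 0.431 FPKM. Neither passed with all libraries, and Lyl1 passed, as higher, without control 4 (limma adjusted p 0.0381) or labelled Foxl2-LSL 2 (0.0453). Lyl1 shares exon sequence with Nfix on the opposite strand. On average Nfix was at 31.5 FPKM in controls and 40.4 FPKM in labelled Foxl2-LSL libraries.

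Sox7, a relative of Sox18, had the widest relative range of the 39 genes among controls. It was at 26.7, 15.3 and 5.54 FPKM in controls 1, 2 and 4 and at 25.1, 38.5, 33.7 and 33.5 FPKM in labelled Foxl2-LSL libraries 1 to 4. Control 1 lay above labelled Foxl2-LSL 1, so the groups overlapped. The log2 fold change of 1.22 (SE 0.43) did not pass (limma adjusted p 0.0551), although it did after median centring (0.0468), after quantile normalization (0.0456) and without control 1 (0.0106), each a limma adjusted p. Leaving out any other library gave a limma adjusted p of 0.0613 to 0.116, and without control 4 the log2 fold change was 0.65. Epithelial markers had the same order across controls. Epcam was at 171, 122 and 61.2 FPKM and Krt8 at 317, 223 and 141 FPKM in controls 1, 2 and 4. In labelled Foxl2-LSL libraries 1 to 4 both had the reverse of the order of Sox7. There Epcam was at 164, 106, 129 and 134 FPKM and Krt8 at 308, 214, 295 and 296 FPKM. Cdh1 had that reverse order too. Krt18, at 221, 192, 242 and 193 FPKM, and Krt19, at 377, 284, 365 and 349 FPKM, did not. Over the 5 epithelial markers the summed level was 528 to 1094 FPKM in controls and 864 to 1166 FPKM in labelled Foxl2-LSL libraries. Of the 5, 1 passed, higher (Krt18). The part of epithelial content in Sox7 was not tested.

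Of the 4 VEGF ligands among the 39 genes, 2 fell and 2 did not pass. Vegfa (chromosome 17, 46016993 to 46032369, minus strand, GRCm38) was the most abundant of the 4, at 66.9, 69.3 and 56.3 FPKM in controls and 23.9, 30.6, 30.7 and 31.0 FPKM in labelled Foxl2-LSL libraries. All 4 labelled Foxl2-LSL libraries were far below the lowest control. Controls averaged 64.2 ± 6.91 FPKM and labelled Foxl2-LSL libraries 29.0 ± 3.40 FPKM (± SD, n = 3 and n = 4), and limma gave an adjusted p of 0.000596 for the log2 fold change of -1.12 (SE 0.12). Vegfc, the lymphatic growth factor, was at 3.48, 3.87 and 4.56 FPKM in controls and 2.60, 2.77, 2.24 and 2.38 FPKM in labelled Foxl2-LSL libraries, without overlap (log2 fold change -0.50, SE 0.10; limma adjusted p 0.00749). With a replicate block on libraries 1, 2 and 4 of each group its call was lost (limma adjusted p 0.0591). The call held on these libraries without the block. Vegfb, a ligand of FLT1 linked to fatty acid uptake, was at 19.9, 19.6 and 15.8 FPKM in controls and 14.3, 18.2, 15.7 and 15.1 FPKM in labelled Foxl2-LSL libraries. It did not pass (limma adjusted p 0.171), though it did without control 4 (0.0465). Pgf, placental growth factor and another FLT1 ligand, was at 1.57, 2.30 and 3.76 FPKM in controls and 2.53, 1.64, 2.34 and 3.28 FPKM in labelled Foxl2-LSL libraries. Its direction turned when 1 library was left out, with a log2 fold change of -0.01 (95% interval -0.55 to 0.53) and 0.22 without control 4.

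Of the 3 VEGF receptors, 2 fell and 1 rose. Kdr was at 9.78, 11.3 and 12.6 FPKM in controls and 7.49, 6.36, 7.57 and 7.27 FPKM in labelled Foxl2-LSL libraries (log2 fold change -0.58, SE 0.10; limma adjusted p 0.00368). Flt1 was at 4.93, 4.79 and 5.39 FPKM in controls and 3.23, 2.51, 3.31 and 3.45 FPKM in labelled Foxl2-LSL libraries (log2 fold change -0.55, SE 0.10; limma adjusted p 0.00496). Both receptors of blood endothelium therefore fell without overlap. Flt4, the lymphatic receptor, was at 4.77, 5.91 and 3.89 FPKM in controls and 9.47, 6.43, 6.89 and 6.58 FPKM in the labelled Foxl2-LSL libraries, with labelled Foxl2-LSL 1 highest. It rose by a log2 fold change of 0.51 (SE 0.16; limma adjusted p 0.0361). That call was lost without control 1, control 4 or labelled Foxl2-LSL 1, 3 or 4, where the limma adjusted p was 0.0768, 0.0899, 0.0599, 0.0689 and 0.0554. It was also lost without the filter on low values (limma adjusted p 0.0622), and under 7 of 16 alternatives in total.

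In the angiopoietin system the ligand Angpt1 showed the largest rise of the 39 genes. Angpt1 (chromosome 15, 42424723 to 42676977, minus strand, GRCm38) was at 0.592, 0.823 and 1.504 FPKM in controls and at 5.23, 4.67, 4.89 and 5.03 FPKM in labelled Foxl2-LSL libraries. The lowest labelled Foxl2-LSL library was well above the highest control, control 4, and the ratio of the group means was 5.09. The log2 fold change was 1.62 (SE 0.15; limma adjusted p 0.000419). It was 2.47 by limma-voom on the recovered fragments, since adding 1 FPKM shrinks the change of low genes. Exons of Angpt1 overlap the antisense gene Gm17473. Angpt2 was at 1.29, 1.33 and 1.91 FPKM in controls and 1.84, 2.85, 2.29 and 1.91 FPKM in labelled Foxl2-LSL libraries. It did not pass with all libraries (log2 fold change 0.36, SE 0.15; limma adjusted p 0.0835) but did without control 4 (0.0352).

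Of the receptors, Tie1 fell and Tek did not pass. Tek was at 6.32, 6.73 and 8.07 FPKM in controls and 6.61, 9.16, 7.62 and 6.90 FPKM in labelled Foxl2-LSL libraries, with overlapping groups (log2 fold change 0.09, 95% interval -0.20 to 0.38). Tie1, an orphan receptor that pairs with TIE2, was at 19.4, 16.4 and 18.8 FPKM in controls and 14.5, 13.1, 14.1 and 12.2 FPKM in labelled Foxl2-LSL libraries. It fell by 0.40 on the log2 scale (SE 0.09; limma adjusted p 0.00939).

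**Figure D3:**
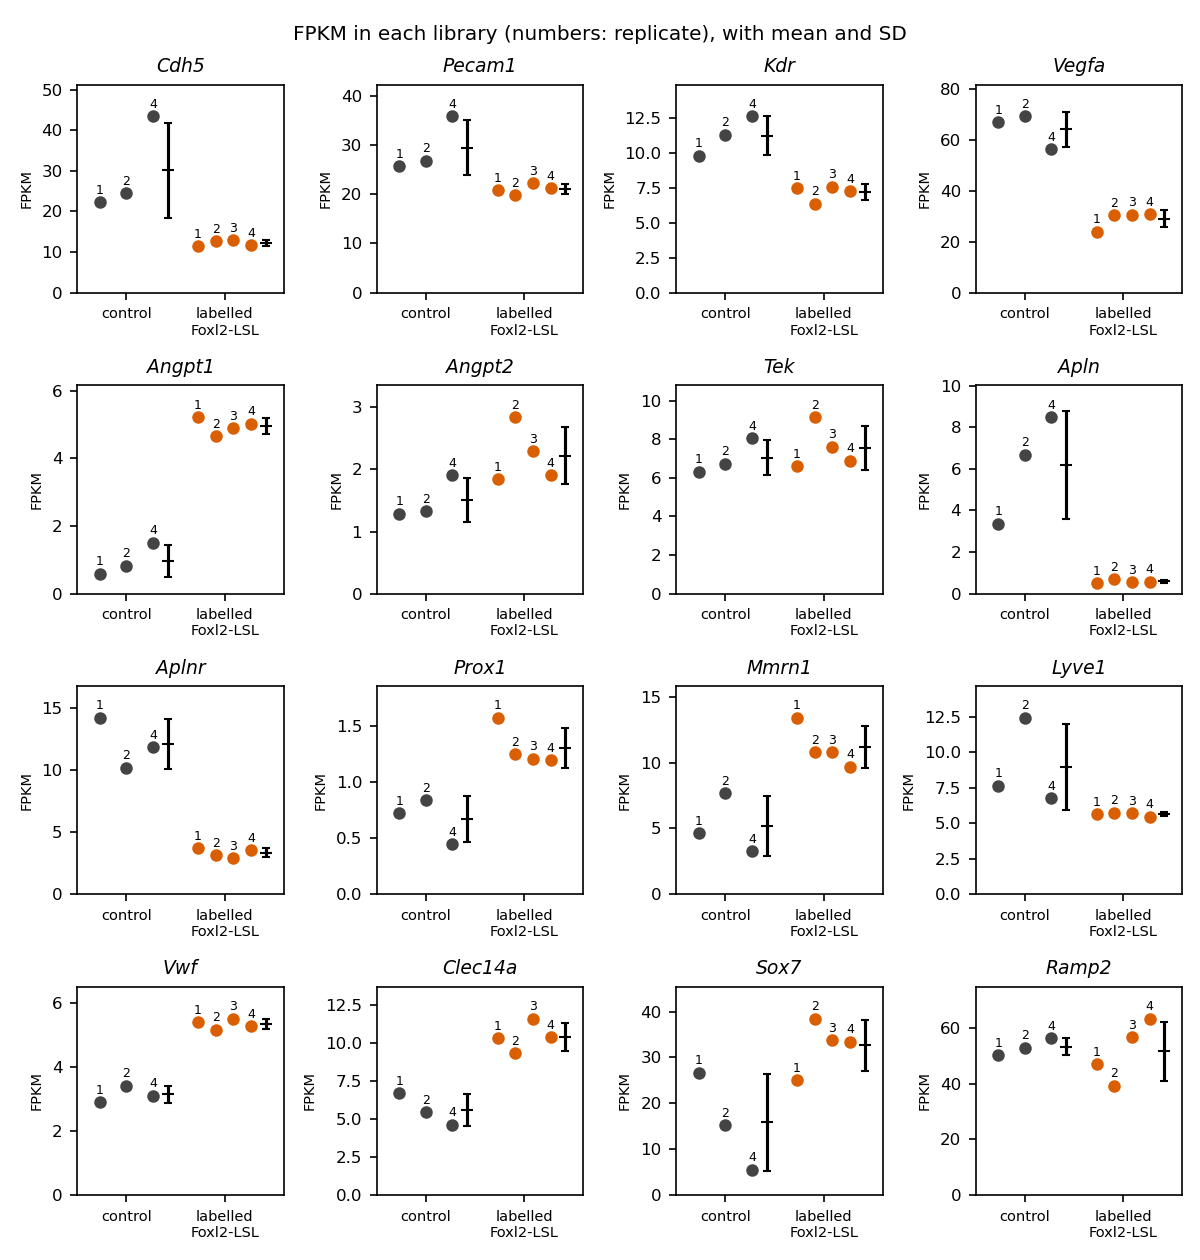
FPKM (y axis, from 0) of 16 genes in each library, with controls in grey and labelled Foxl2-LSL libraries in orange; numbers are replicates and bars are the mean and SD. The groups stand well apart in Angpt1, Apln and Aplnr, control 4 is the highest control in Cdh5 and Pecam1 and the lowest in Sox7, and the groups overlap in Angpt2, Tek, Sox7 and Ramp2.

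Apelin and its receptor had the largest falls. Apln (chromosome X, 48025146 to 48034853, minus strand, GRCm38) encodes the peptide apelin, made by sprouting tip cells. It was at 3.36, 6.68 and 8.50 FPKM in controls and at 0.509, 0.698, 0.556 and 0.574 FPKM in labelled Foxl2-LSL libraries. Controls were uneven while the labelled Foxl2-LSL libraries were close together, and no control was below any of them. The log2 fold change was -2.11 (SE 0.24; limma adjusted p 0.000821), and -3.30 by limma-voom on recovered fragments. Aplnr (chromosome 2, 85136225 to 85139923, plus strand), the apelin receptor of venous and sprouting endothelium, was at 14.2, 10.2 and 11.8 FPKM in controls and 3.71, 3.15, 2.91 and 3.55 FPKM in labelled Foxl2-LSL libraries. Its log2 fold change was -1.58 (SE 0.12; limma adjusted p 0.000211), and the means were 12.0 ± 2.02 and 3.33 ± 0.366 FPKM (± SD, n = 3 and n = 4).

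Nos3, endothelial nitric oxide synthase, which relaxes vessels, was at 5.48, 6.25 and 8.62 FPKM in controls and 3.08, 2.44, 2.99 and 3.001 FPKM in labelled Foxl2-LSL libraries (log2 fold change -0.99, SE 0.14; limma adjusted p 0.00187). Its exons overlap Atg9b on the opposite strand, which was itself at 1.41 and 1.26 FPKM on average. S1pr1, the sphingosine-1-phosphate receptor that keeps endothelium quiescent, was at 7.92, 9.41 and 9.28 FPKM in controls and 6.65, 7.35, 6.52 and 7.14 FPKM in labelled Foxl2-LSL libraries. It fell by 0.32 on the log2 scale (limma adjusted p 0.0194). The call was lost under 3 of 16 alternatives, among them without control 2 (limma adjusted p 0.0750) and without labelled Foxl2-LSL 3 (0.0556). Calcrl and Ramp2, which together form an adrenomedullin receptor, did not pass. Calcrl averaged 8.51 ± 1.23 FPKM in controls and 7.44 ± 0.546 FPKM in labelled Foxl2-LSL libraries (± SD, n = 3 and n = 4), with a 95% interval of the log2 fold change of -0.40 to 0.07. Ramp2 was at 53.2 ± 3.05 and 51.6 ± 10.6 FPKM, with an interval of -0.42 to 0.30. Ramp2 shares exon sequence with Vps25 in the annotation, so part of its count may belong to that gene. On average Vps25 was at 42.9 FPKM in controls and 48.4 FPKM in labelled Foxl2-LSL libraries.

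Of the 4 lymphatic genes, 3 rose and 1 fell. Prox1 (chromosome 1, 190118035 to 190170714, minus strand, GRCm38), the transcription factor that sets lymphatic identity, had the lowest mean over the 7 libraries of the 39 genes, though in the labelled Foxl2-LSL libraries Apln and Tal1 were lower. It was at 0.725, 0.843 and 0.449 FPKM in controls and at 1.58, 1.25, 1.21 and 1.20 FPKM in the labelled Foxl2-LSL libraries, without overlap. The log2 fold change was 0.47 (SE 0.13; limma adjusted p 0.0206), and 0.90 with a pseudocount of 0.1. With a replicate block on libraries 1, 2 and 4 of each group the Prox1 call was lost (limma adjusted p 0.0699). It held on these libraries without the block. Mmrn1, multimerin 1, a matrix protein of lymphatic endothelium and platelets, was at 4.62, 7.66 and 3.27 FPKM in controls and 13.4, 10.8, 10.8 and 9.70 FPKM in labelled Foxl2-LSL libraries (log2 fold change 1.03, SE 0.23; limma adjusted p 0.00935). Pdpn, podoplanin, found on lymphatic endothelium and also on fibroblasts and mesothelium, was at 7.54, 9.11 and 6.51 FPKM in controls and 12.4, 11.1, 9.99 and 12.5 FPKM in labelled Foxl2-LSL libraries. It rose by a log2 fold change of 0.52 (SE 0.12; limma adjusted p 0.0119). Controls had the same order in Prox1, Mmrn1, Pdpn and Flt4, which rose, and in Lyve1, which fell. In each of these genes control 2 was highest and control 4 lowest.

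Lyve1, a hyaluronan receptor of lymphatic capillaries that some macrophages share, went the other way. It was at 7.64, 12.4 and 6.78 FPKM in controls and 5.65, 5.74, 5.72 and 5.47 FPKM in labelled Foxl2-LSL libraries. The labelled Foxl2-LSL libraries were nearly equal, and control 2 set much of the difference. The log2 fold change was -0.54 (SE 0.17; limma adjusted p 0.0401) with all libraries and -0.30 without control 2. The call was lost without labelled Foxl2-LSL 1, 2, 3 or 4, where the limma adjusted p was 0.0768, 0.0739, 0.0834 and 0.0864. It was also lost by limma-voom (adjusted p 0.05526) and without the filter on low values (limma adjusted p 0.0678). In total 7 of 16 alternatives lost it.

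Ratios between genes in the same library compare their levels without the library's scale. The Angpt2 to Angpt1 ratio was 2.18, 1.61 and 1.27 in controls and 0.352, 0.610, 0.469 and 0.380 in labelled Foxl2-LSL libraries, so Angpt2 exceeded Angpt1 in every control and in no labelled Foxl2-LSL library. The Apln to Aplnr ratio was 0.237, 0.657 and 0.721 in controls and 0.137, 0.221, 0.191 and 0.162 in labelled Foxl2-LSL libraries. Control 1 lay just above the highest of these. Cdh5 to Pecam1 went from 0.871, 0.915 and 1.21 to 0.551, 0.644, 0.581 and 0.553, a wider fall of Cdh5 than of Pecam1. In these 3 ratios the groups did not overlap, and an exact permutation test (two-sided) gave p = 0.0571, the smallest possible with 3 against 4 libraries (0.0952 after Benjamini-Hochberg adjustment over 5 ratios). Flt1 to Kdr was 0.452 ± 0.0449 (SD, n = 3) and 0.435 ± 0.0329 (SD, n = 4) (exact permutation p 0.629). Kdr to Pecam1 was 0.385 ± 0.0350 and 0.340 ± 0.0154 (exact permutation p 0.114), and the groups of both ratios overlapped.

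**Figure D4:**
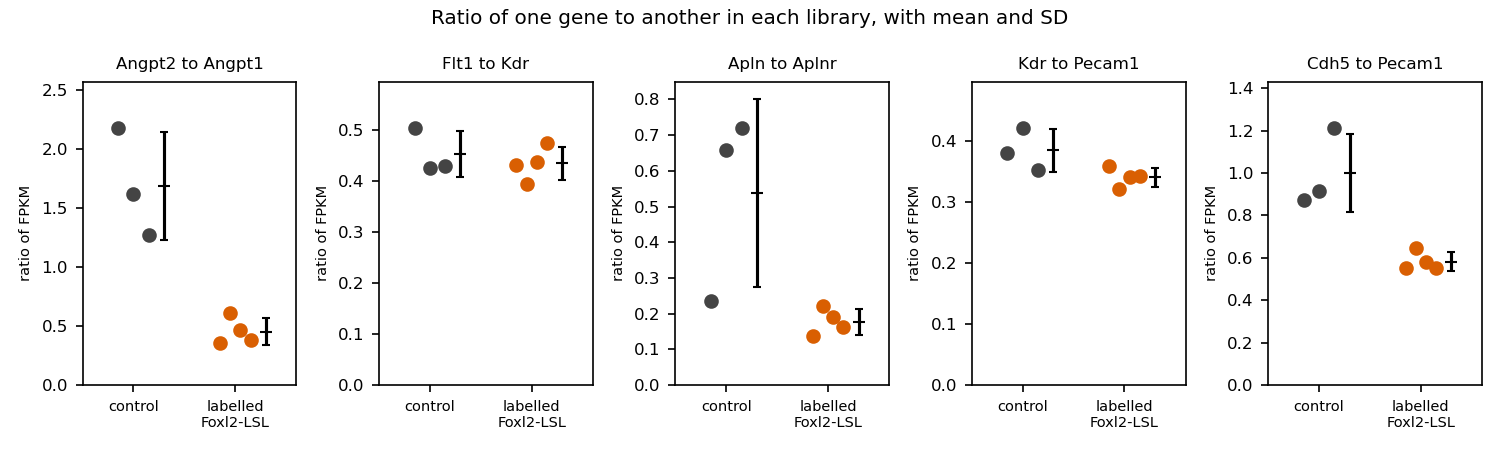
Ratio of FPKM of one gene to another (y axes, from 0) in each control (grey) and labelled Foxl2-LSL library (orange), with mean and SD. The Angpt2 to Angpt1 ratio lies above 1 in the 3 controls and below 1 in the 4 labelled Foxl2-LSL libraries, while the Flt1 to Kdr ratio overlaps between groups.

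Other genes of the vessel wall and its signals were taken from lists beside the 39 genes. These lists and those of other cells below were also chosen with earlier results of these data known, so their counts are description. The shares of all tested genes were 23.9% lower and 16.7% higher. Of 22 further endothelial genes, 11 were lower, 2 higher and 9 did not pass (median log2 fold change -0.40, against -0.05 for all tested genes). Cd93, a lectin of sprouting endothelium, fell from 21.9, 19.6 and 29.4 FPKM to 5.73, 7.63, 5.86 and 5.81 FPKM (log2 fold change -1.75; limma adjusted p 0.000317). Adgrl4 and Podxl fell by 1.503 and 1.37 on the log2 scale. Cldn5, the claudin of endothelial tight junctions, which epithelia can also express, rose from 20.4, 16.0 and 13.2 FPKM to 27.1, 30.6, 35.01 and 26.4 FPKM. Of 21 tested genes of VEGF binding, hypoxia and vessel growth, 6 were higher and 5 lower. Sema3e, a guidance signal that repels endothelium, rose (log2 fold change 1.82), and the angiogenesis inhibitors Vash1 and Thbs1 fell (-1.20 and -1.09). Thbs2, a related inhibitor, rose (1.09; limma adjusted p 0.000489), as did the further VEGF ligand Vegfd (0.39; limma adjusted p 0.0497). Of 17 genes of endothelial Notch signalling and of arteries and veins, 4 were higher and 6 lower. Klf4 (2.26) and Jag1 (1.121) rose and Heyl (-1.20) fell, and Klf4 and Jag1 are also expressed in epithelium. Of 5 further lymphatic genes tested, Reln (0.57) rose and Gata2 (-0.49) fell, and Gata2 is also counted among the 22 endothelial genes. Of 12 partners of adrenomedullin, sphingosine-1-phosphate and nitric oxide, 4 were higher and 5 lower. The scavenging receptor Ackr3 and the receptor partner Ramp3 fell by 1.75 and 1.70 on the log2 scale, and the kinase Sphk1 rose (0.92).

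Pericytes are the mural cells that wrap capillaries. Of 10 pericyte and mural genes, 5 were lower and none was higher, while 23.9% of all tested genes were lower and 16.7% higher. Rgs5 fell from 27.3, 54.8 and 67.3 FPKM to 10.5, 10.5, 11.6 and 10.6 FPKM (log2 fold change -2.01; limma adjusted p 0.00134). Higd1b and Ndufa4l2 fell by 1.99 and 0.72 on the log2 scale. The 5 genes that did not pass pointed the other way. Notch3, Des, Kcnj8, Mcam and Abcc9 had log2 fold changes of 0.15, 0.20, 0.26, 0.37 and 0.44. The summed level of the list was 156 to 308 FPKM in controls and 187 to 205 FPKM in labelled Foxl2-LSL libraries, so the sums overlapped. Much of the sum was Des and Mcam. On average Des was at 79.4 FPKM in controls and 87.6 FPKM in labelled Foxl2-LSL libraries, and Mcam at 44.2 and 55.3 FPKM. Des is also counted among the smooth muscle genes below.

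Some markers of other cells also differed between the labelled groups. Among all tested genes 16.7% were higher and 23.9% lower. Of 6 platelet genes, 2 were tested and both were higher, Pf4 (log2 fold change 1.41) and Itga2b (0.57) (summed level 7.13 to 8.17 FPKM in controls and 14.3 to 18.1 FPKM in labelled Foxl2-LSL libraries), while Ppbp and Gp9 did not exceed 0.146 and 0.155 FPKM in any library. The haemoglobin genes Hba-a1, Hba-a2, Hbb-bs and Hbb-bt were listed at 0 in all 7 libraries, and none of the 7 red blood cell genes was tested (summed level 0.680 to 1.325 FPKM against 0.515 to 1.05 FPKM). Nearly all of that level was Alas2, at 0.476 to 1.301 FPKM. Whether reads on the haemoglobin genes could be counted is not known, so their values of 0 do not show that red cells were absent. Leukocyte genes were higher in 2 of 6 tested, Itgam (1.597) and Csf1r (0.64) (summed level 105 to 159 FPKM against 147 to 202 FPKM). Smooth muscle genes were higher in 2 of 7, Myh11 (1.01) and Tagln (0.77) (summed level 897 to 1745 against 1567 to 2015 FPKM). Of 8 stromal genes Dcn was higher (1.25) and Hoxa11 (-1.90), Hoxa10 (-1.45) and Vim (-0.56) were lower (summed level 1189 to 1995 against 1638 to 1907 FPKM). The remaining tested genes of these lists did not pass: 4 of leukocytes, 5 of smooth muscle and 4 of stroma. Cycling-cell genes were lower in 6 of 6, led by Top2a (-2.63), Ccnb1 (-2.52) and Cdk1 (-2.37), with a summed level of 72.8 to 169 FPKM in controls and 8.98 to 28.9 FPKM in labelled Foxl2-LSL libraries. The part of these cell types and of cycling in the endothelial results was not tested.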

How the data were processed

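Total RNA from whole uterus was extracted with TRIzol, per the labels' protocols. The authors deposited 1 table of FPKM values with 1 column per library, and another column giving the length of each gene, per the file headers. STAR 2.5.2b, featureCounts 1.5.0-p1, DESeq2 1.12.4 and the build mm10 are named in the submitters' processing notes, without their roles. Which annotation was counted, and whether by strand, is not given in the sources used here.

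Groups and replicate numbers came from sample titles and columns were matched by sample descriptions. Fragments were recovered from FPKM multiplied by length. Among genes of up to 1500 bases with values of up to 20 multiples (1653 to 1832 per library), 100% came out whole within 0.1, against 20% expected of arbitrary values. Between 74.4% and 77.5% of the denominators lay on listed genes. Counting error covers counting only, since PCR copies are not independent molecules. Replicates differed by more than sampling noise (chi-square per gene 25.3 to 245), so each counted once.

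Genes with a mean of at least 1 FPKM were compared as log2(FPKM + 1) by limma 3.58.1 under R 4.3.3 (eBayes trend option on; Benjamini-Hochberg over all tested genes; threshold 0.05). Every fold change is on that scale unless limma-voom is named. Ratios were compared with two-sided exact permutation tests. The fit was tested on simulated data. Python 3.11.15, scipy 1.17.1, pandas 2.3.3 and matplotlib 3.10.9 were used.

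The 39 genes and the other lists were chosen with earlier results of these data known. Values in every library are given for up to 4 genes of each role: those past the threshold with the largest change, then those with the highest mean. Per-library values of Vwf, Epcam, Krt8, Krt18 and Krt19, the means of Des and Mcam, and the genes Thbs2, Vegfd and Cdh1 were added after their values were seen. From other lists up to 3 genes with the largest change past the threshold are named. Of the 39 genes, 9 share exon sequence with another annotated gene (Egfl7, Cd34, Rasip1, Eng, Lyl1, Angpt1, Ramp2, Nos3 and Prox1), and without strand such reads cannot be told apart. Gene positions are from GENCODE M21 on GRCm38, the assembly of mm10. Alternatives covered the pseudocount, the filter, scaling, the trend, limma-voom, each library left out and a replicate block.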

Additional observations from a re-analysis of the deposited data

Results flagged for a closer look

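Among the 4 labelled Foxl2-LSL libraries, the gap between the most extreme library and the next was compared with the range of the group (Dixon's criterion at 95%), for each of the 39 genes. Chance flags about 1 in 20 groups, and 5 of 39 genes were marked. Labelled Foxl2-LSL 1 was the highest for Flt4 (9.47 FPKM) and Prox1 (1.58 FPKM) and the lowest for Vegfa (23.9 FPKM). Labelled Foxl2-LSL 2 was the lowest for Cd34 (44.8 FPKM) and Nos3 (2.44 FPKM). The criterion was not applied to the groups of 3 controls.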

How the results depend on the processing

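Of the 27 genes of the list past the threshold, 21 stayed past it in the same direction under each of the 16 alternatives in which they were fitted, 6 lost the call under at least 1 (Erg, Flt4, Lyve1, S1pr1, Vegfc and Prox1), and 0 reversed. The count of genes past the threshold ranged from 24 to 28 of 39 when each library in turn was left out. With a mean of at least 5 FPKM, 4 rather than 7 were higher, as only 26 of the 39 genes were then tested. All tested genes past the threshold ranged from 3853 to 5328 in the fits that left out a library. Of all genes past the threshold, 41.1% were higher with values as deposited, 49.2% after quantile normalization and 50.4% after median centring, and 25.9%, 29.6% and 28.6% for the list.

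Both groups hold replicates 1, 2 and 4, and no label says that equal numbers mark pairs. The correlations between libraries of equal number, after removing group means, were 0.228, -0.0306 and -0.112. Group means rest on few libraries, so these values cannot decide whether libraries 1, 2 and 4 of both groups are paired. With a replicate block on these 6 libraries, 3243 genes passed (1368 higher and 1875 lower) against 5409, and 21 of the list (5 higher and 16 lower). Vegfc and Prox1 lost the call under the block alone (limma adjusted p 0.0591 and 0.0699, against 0.0244 and 0.0449 on these libraries without it). Without a block the same 6 libraries gave 3975.

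Pgf, at -0.01, was 0.0392 after quantile normalization, 0.0387 after median centring and 0.0169 by limma-voom, and ranged from -0.22 to 0.22 in the fits that left out a library. Ramp2 ranged from -0.169 to 0.0565 there. Neither passed in any fit. The log2 difference of the Flt1 to Kdr ratio ranged from -0.100 to 0.0240 when each library was left out. For all of these changes the cause was not tested.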
